A study of Mus musculus with 2 samples.

Results

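The 7 genes followed here restrain cell division, and their transcripts were measured in normal mouse prostate: the tumor suppressors Trp53 and Rb1 and the cyclin-dependent kinase inhibitors Cdkn1a, Cdkn1b, Cdkn1c, Cdkn2a and Cdkn2b. They were chosen by name, looked up by gene symbol, and all 7 of 7 were found among the 32285 genes of the files. Single-cell RNA sequencing had been done on dissociated prostates of males of the C57BL6 strain, wild-type in both groups, with no treatment named and no age in the labels. The study held 1 library of the ventral lobes (Chromium 3′ chemistry, version 2) and 1 library of the proximal and periurethral region, next to the urethra (version 3). The question for these genes was their baseline level in luminal, basal and stromal cells. The labels do not say how many animals went into a library. With 1 library per group, no difference has a replicate check and no p-value is given. Between the libraries, the region sampled cannot be told apart from the version of the kit.

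The RB protein holds cells in G1 by binding E2F transcription factors, and cyclin-dependent kinases release that hold by phosphorylating it. The INK4 inhibitors, encoded by Cdkn2a and Cdkn2b, block the kinases that pair with D-type cyclins, while the CIP/KIP inhibitors p21 (Cdkn1a), p27 (Cdkn1b) and p57 (Cdkn1c) act on a broader set of cyclin-kinase complexes. The p53 protein, encoded by Trp53, switches on Cdkn1a after DNA damage and other stress, and Cdkn2a also encodes ARF, which protects p53 from Mdm2.

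In the mm10 (GRCm38) build, Trp53 (ENSMUSG00000059552) lies at chr11:69580359-69591873 on the + strand and Rb1 (ENSMUSG00000022105) at chr14:73183673-73325822 on the − strand. Cdkn1a (ENSMUSG00000023067) lies at chr17:29090976-29100727 on the + strand, Cdkn1b (ENSMUSG00000003031) at chr6:134920401-134925513 on the + strand and Cdkn1c (ENSMUSG00000037664), an imprinted gene, at chr7:143458339-143461050 on the − strand. Cdkn2a (ENSMUSG00000044303) at chr4:89274471-89294653 and Cdkn2b (ENSMUSG00000073802) at chr4:89306299-89311039 are neighbours on the − strand. The counts are per gene, so the p16Ink4a and ARF transcripts of Cdkn2a, which share their last exons, cannot be told apart.

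Cdkn1a had the most UMIs of the 7 genes in both libraries and is the textbook target of p53, so its promoters are shown. RefSeq lists a pair of start sites for it, and each window below runs from 250 bases before the start to 50 after it, on the + strand of GRCm38.p6. Capitals mark the p53 half-site letters CATG with 6 free bases between them (CATGNNNNNNCATG, the same on both strands) in the first window and the GC box GGGCGG in the second.
Cdkn1a first start, chr17:29090729-29091028: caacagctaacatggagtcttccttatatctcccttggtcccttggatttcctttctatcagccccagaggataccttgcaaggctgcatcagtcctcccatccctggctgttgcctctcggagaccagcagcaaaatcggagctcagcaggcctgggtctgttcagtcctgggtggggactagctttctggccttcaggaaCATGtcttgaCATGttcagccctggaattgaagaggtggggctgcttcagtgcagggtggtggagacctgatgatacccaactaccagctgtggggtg
Cdkn1a second start, chr17:29093519-29093818: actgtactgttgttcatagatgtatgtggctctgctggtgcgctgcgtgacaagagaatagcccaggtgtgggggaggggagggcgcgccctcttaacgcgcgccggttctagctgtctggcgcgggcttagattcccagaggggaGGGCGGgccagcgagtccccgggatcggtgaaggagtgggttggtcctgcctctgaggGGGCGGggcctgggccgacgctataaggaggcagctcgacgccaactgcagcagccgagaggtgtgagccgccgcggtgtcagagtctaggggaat
The first window held CATGNNNNNNCATG once, beginning 48 bases before the start site, a match that 234 of 32851 such windows (0.712%) had. The second window held GGGCGG at 104 and 46 bases before the start. GGGCGG, searched on both strands, was in 11714 of 32851 windows (35.7%). RefSeq windows were matched for 5 of the 7 genes, 7 windows in all. CATGNNNNNNCATG was in 1 of these 7 and GGGCGG in 5 of them. Such matches are letters in a window and do not show binding.

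After filtering, 1988 ventral cells (median 25759 UMIs, each UMI being 1 captured RNA molecule) and 3705 proximal cells (median 15260 UMIs) were kept. Before filtering the totals were 49356586 UMIs over 2221 ventral barcodes and 97817603 over 4344 proximal ones, and the libraries shared 0 barcodes. Clusters were named from marker genes, so the classes are rebuilt and called "-like". The ventral library gave 1634 distal luminal-like (secretory), 43 proximal luminal-like and 142 basal-like cells. The proximal library gave 654 distal luminal-like, 643 proximal luminal-like, 928 basal-like and 522 fibroblast-like cells. The 43 ventral proximal luminal-like cells are few, and the class held from 43 to 122 cells under other settings of filtering and clustering. Its values are given with these limits. The fibroblast-like class is the only stromal class with a name besides endothelial cells, since no smooth muscle-like or pericyte-like cluster was named. The 7 fibroblast markers other than Dcn summed to 3096 CPM (a gene's UMIs per 1000000 UMIs of its class) in fibroblast-like cells, 17.0 CPM in proximal basal-like cells and 191 CPM in ventral basal-like cells, while Dcn itself stood at 5943, 1297 and 5156 CPM. The 8 distal luminal markers summed to 22958 CPM in the ventral basal-like cells, with Tgm4 at 0, and the part of such RNA in the values below was not tested. Sbp and Spink1, a pair of secretory genes, took 45.9% of the UMIs of ventral and 16.4% of those of proximal distal luminal-like cells, and both classes were deep, with medians of 27231 and 51896 UMIs per cell against 4961 and 12104 in basal-like cells. A level in CPM is therefore a share of a cell's RNA, not an amount per cell, and orders of levels below are orders of that share. Of the 63 ratios of members between classes or libraries, 23 lay on the other side of 1 when UMIs were counted per cell, and per-cell ratios are given beside those the text turns on. Levels are UMIs summed over a class, all intervals are exact 95% intervals, and they cover counting error only.

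**Figure D1:**
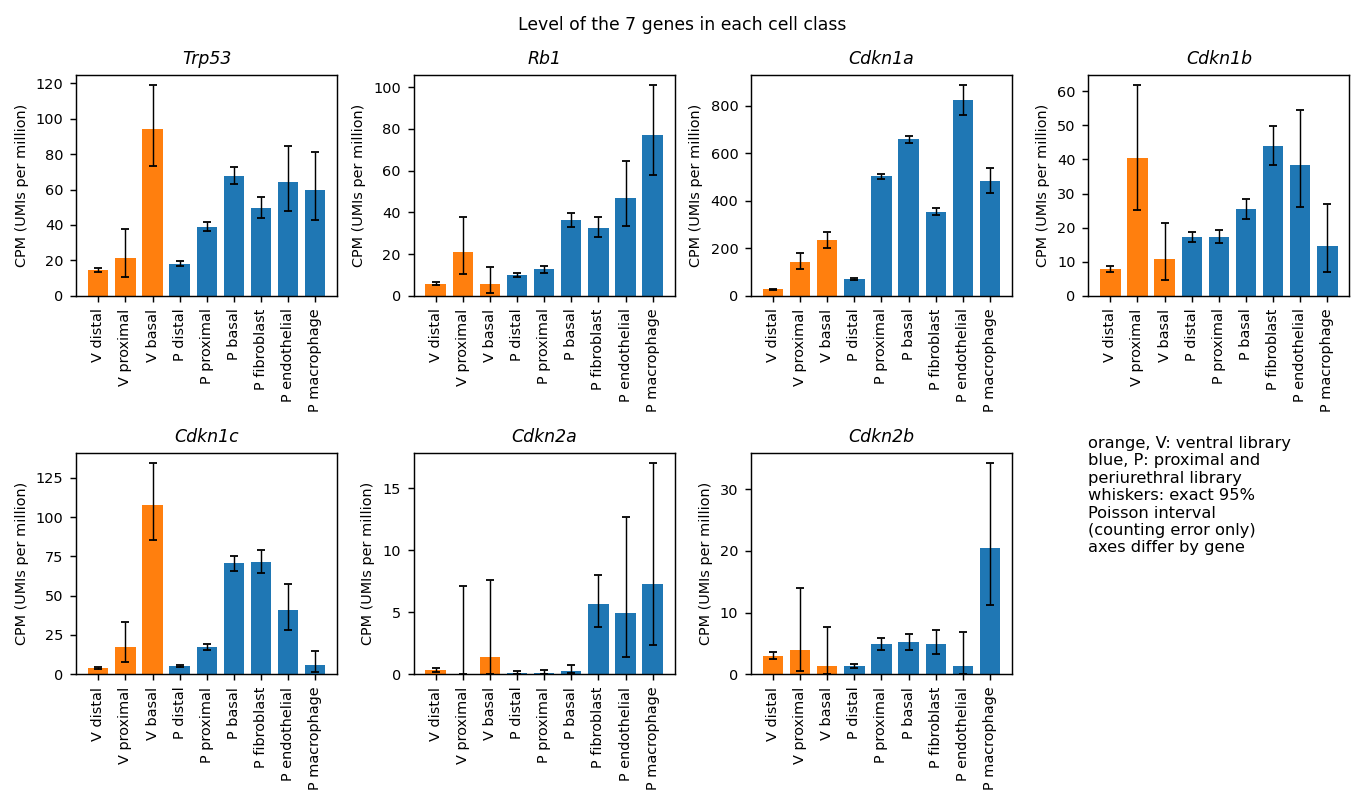
Level of each of the 7 genes in CPM (y axis, a different scale for each gene) by cell class (x axis) in the ventral (V, orange) and proximal (P, blue) library, with exact 95% Poisson whiskers for counting error. Cdkn1a is at 659 CPM in proximal basal-like and 823 CPM in endothelial-like cells, while Cdkn2a stays below 10 CPM in each class drawn, and the distal luminal-like bars are low for Trp53, Cdkn1a and Cdkn1c in both libraries.

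Trp53 was a low-level transcript in each class, and its share of the RNA was lowest in distal luminal-like and highest in basal-like cells of both libraries. In the ventral library it stood at 14.7 CPM (13.5 to 15.8) in distal luminal-like cells, 21.2 CPM (10.6 to 37.9, from 11 UMIs) in proximal luminal-like cells and 94.0 CPM (73.2 to 119) in basal-like cells. The proximal order was 18.2 CPM (16.8 to 19.7) in distal luminal-like, 39.0 CPM (36.4 to 41.8) in proximal luminal-like, 49.4 CPM (43.7 to 55.7) in fibroblast-like and 67.8 CPM (63.3 to 72.5) in basal-like cells. These 4 proximal intervals did not overlap, while the ventral luminal pair did overlap. Endothelial-like cells at 64.4 CPM (48.1 to 84.4) and macrophage-like cells at 59.7 CPM (42.9 to 81.1) could not be separated from basal-like cells. On the CPM scale the level in basal-like cells was 6.42 (4.93 to 8.23) times that in distal luminal-like cells of the ventral and 3.73 (3.36 to 4.15) times that of the proximal library. Counted per cell, the ratios were 1.22 and 0.983, so a proximal basal-like cell held about as many Trp53 UMIs as a distal luminal-like cell.

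Mdm2, the ubiquitin ligase that keeps p53 low and is itself a p53 target, was also highest in basal-like cells among these classes. It stood at 12.6 CPM in ventral distal luminal-like, 30.8 CPM in proximal luminal-like and 65.4 CPM in basal-like cells. The proximal levels of Mdm2 were 37.6 CPM in distal luminal-like, 38.1 CPM in proximal luminal-like, 68.3 CPM in fibroblast-like and 131 CPM in basal-like cells, so the proximal luminal pair was close in Mdm2 and apart in Trp53. The Mdm2 ratio of basal-like to distal luminal-like cells was 5.19 (3.78 to 6.98) in the ventral and 3.48 (3.23 to 3.75) in the proximal library, and counted per cell it was 0.990 and 0.916.

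Rb1, the gatekeeper of the G1 to S step, was lower than Trp53 in most classes and did not share its order in the ventral library. Ventral distal luminal-like cells had 5.69 CPM (5.01 to 6.44), proximal luminal-like cells 21.2 CPM (10.6 to 37.9, from 11 UMIs) and basal-like cells 5.45 CPM (1.49 to 14, from 4 UMIs). The interval of the 4 UMIs in ventral basal-like cells spans the distal luminal-like level. Rb1 in the proximal library stood at 9.94 CPM (8.91 to 11.1) in distal luminal-like, 12.6 CPM (11.1 to 14.3) in proximal luminal-like, 32.7 CPM (28.1 to 37.9) in fibroblast-like and 36.4 CPM (33.1 to 39.9) in basal-like cells. Fibroblast-like and basal-like cells overlapped in their intervals, and macrophage-like cells were highest at 77.2 CPM (57.9 to 101). The basal-like to distal luminal-like ratio of Rb1 was 3.66 (3.17 to 4.22) in the proximal library, and 0.963 when counted per cell.

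Cdkn1a, which encodes p21, had the most UMIs of the 7 genes in each luminal, basal-like and fibroblast-like class of both libraries, and among those classes its level was lowest in secretory cells. Ventral distal luminal-like cells had 27.3 CPM (25.8 to 28.9), proximal luminal-like cells 142 CPM (112 to 179) and basal-like cells 233 CPM (199 to 271). Distal luminal-like cells of the proximal library had 70.6 CPM (67.8 to 73.5), fibroblast-like cells 355 CPM (340 to 371), proximal luminal-like cells 504 CPM (494 to 513) and basal-like cells 659 CPM (645 to 673). No 2 of these intervals overlapped within a library. Macrophage-like cells at 485 CPM (435 to 540) could not be separated from proximal luminal-like cells, and endothelial-like cells were highest as a share of RNA at 823 CPM (762 to 888). Counted per cell, proximal luminal-like cells led with 16.0 UMIs, against 10.9 in endothelial-like and 8.94 in basal-like cells. The 26 seminal vesicle epithelium-like cells of that library, too few for a comparison, had 26.3 CPM. By level, Cdkn1a was gene 204 of the 21092 genes detected in proximal basal-like cells and gene 1553 of 22236 in proximal distal luminal-like cells.

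The ratio of basal-like to distal luminal-like cells for Cdkn1a was 8.53 (7.22 to 10.0) in the ventral and 9.34 (8.92 to 9.78) in the proximal library, and counted per cell it was 1.63 and 2.46. The difference was also in the share of cells. After thinning each cell to 2000 UMIs, a Cdkn1a UMI was found in 5.72% (4.64% to 6.96%) of ventral distal luminal-like and 24.6% (17.7% to 32.7%) of ventral basal-like cells, against 33.3% and 46.5% without thinning. The thinned proximal shares were 11.9% (9.46% to 14.6%) in distal luminal-like, 39.8% (35.4% to 44.3%) in fibroblast-like, 53.8% (49.8% to 57.7%) in proximal luminal-like and 59.3% (56.1% to 62.5%) in basal-like cells. Without thinning these shares were 59.8%, 70.5%, 93.0% and 91.6%, so most cells of each of these proximal classes held some Cdkn1a RNA. Free RNA in the droplets can add UMIs to any cell, and no class that should lack Cdkn1a was at hand to set beside these shares.

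Cdkn1b, which encodes p27, was within 2-fold between the luminal-like and basal-like classes of the proximal library in CPM, while in the ventral library its highest level was in the few proximal luminal-like cells. It stood at 7.79 CPM (6.99 to 8.66) in ventral distal luminal-like, 10.9 CPM (4.71 to 21.5, from 8 UMIs) in basal-like and 40.4 CPM (25 to 61.8, from 21 UMIs) in proximal luminal-like cells. In the proximal library distal luminal-like cells at 17.2 CPM (15.8 to 18.7) and proximal luminal-like cells at 17.3 CPM (15.6 to 19.2) could not be separated. Basal-like cells had 25.3 CPM (22.6 to 28.3), a ratio to distal luminal-like cells of 1.47 (1.28 to 1.69) that was 0.388 per cell, and fibroblast-like cells 43.8 CPM (38.4 to 49.7). It was the CIP/KIP gene whose fibroblast-like level lay above the basal-like level beyond the counting interval, at a ratio of 1.73 (1.46 to 2.05). Its fibroblast-like to distal luminal-like ratio was 2.54 (2.18 to 2.96), which turned to 0.521 when counted per cell.

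Cdkn1c, which encodes p57, was low in secretory cells and higher in basal-like and fibroblast-like cells. Ventral distal luminal-like cells had 3.68 CPM (3.14 to 4.29), proximal luminal-like cells 17.3 CPM (7.92 to 32.9, from 9 UMIs) and basal-like cells 108 CPM (85.2 to 134). The proximal levels were 5.05 CPM (4.32 to 5.86) in distal luminal-like, 17.2 CPM (15.4 to 19.1) in proximal luminal-like, 70.4 CPM (65.9 to 75.2) in basal-like and 71.4 CPM (64.5 to 78.9) in fibroblast-like cells. The last 2 classes overlapped, with a ratio of 1.01 (0.898 to 1.14). Its basal-like to distal luminal-like ratio was 29.2 (22.1 to 38.5) in the ventral library and 14 (11.8 to 16.5) in the proximal library. The ventral ratio was the largest in any comparison of classes there among members with at least 50 UMIs over the 2 classes. Counted per cell the same ratios were 5.58 and 3.68. After thinning, Cdkn1c UMIs were in 0.923% of ventral distal luminal-like and 19.6% (13.3% to 27.2%) of ventral basal-like cells, and in 1.56% and 12.2% (10.1% to 14.5%) of the same classes of the proximal library.

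The make-up of the CIP/KIP family differed between some classes and was alike in the ventral luminal pair. The 3′ kits count 1 tag per molecule, so UMIs of the 3 genes can be set side by side without dividing by length, although capture can differ between genes. Cdkn1a gave 93.6% (93.1% to 94.0%) of the CIP/KIP UMIs of proximal luminal-like cells in the proximal library, 87.3% in basal-like, 76.0% in distal luminal-like and 75.5% in fibroblast-like cells. In ventral cells Cdkn1a gave 71.2% (61.4% to 79.6%) in proximal luminal-like, 70.4% (68.2% to 72.6%) in distal luminal-like and 66.3% in basal-like cells. Cdkn1c gave 30.6% (25.1% to 36.6%) in ventral basal-like cells and 9.33% in proximal basal-like cells. Cdkn1b gave 20.1% in ventral and 18.5% in proximal distal luminal-like cells, and 3.10% and 3.36% in basal-like cells. The p27 transcript thus made up more of the family's RNA in secretory than in basal-like cells of both libraries.

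**Figure D2:**
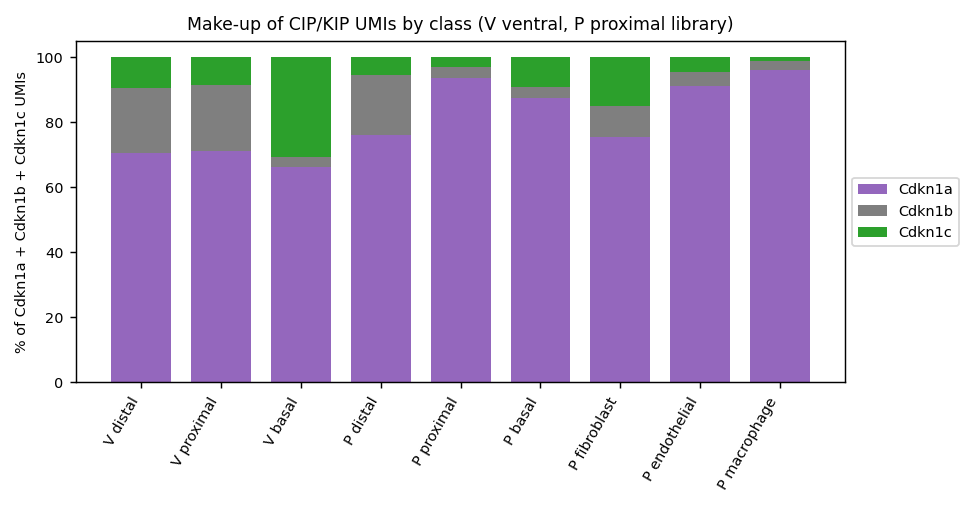
Percent of the summed Cdkn1a, Cdkn1b and Cdkn1c UMIs (y axis) contributed by each of the 3 genes, stacked, by cell class and library (x axis). Cdkn1a takes the largest part in each bar, from 66.3% in ventral basal-like cells to 96.0% in proximal macrophage-like cells.

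Cdkn2a, the locus of p16Ink4a and ARF, was barely detected. The whole ventral library held 20 UMIs in 16 cells and the proximal library 62 UMIs in 44 cells. Of the proximal UMIs, 31 lay in 23 of the 522 fibroblast-like cells, which puts that class at 5.63 CPM (3.83 to 8.00). Basal-like cells had 0.238 CPM (0.0491 to 0.696), from 3 UMIs, proximal luminal-like cells 2 UMIs and distal luminal-like cells 3 UMIs. Macrophage-like cells had 7.29 CPM, from 5 UMIs, and endothelial-like cells 4.95 CPM, from 4 UMIs, so the fibroblast-like level was not the highest. The 29 ventral macrophage-like cells stood at 14.9 CPM. The fibroblast-like level was 23.7 (7.38 to 121) times the basal-like level, a ratio of 31 to 3 UMIs that is under the minimum of 50 UMIs used for fold counts. In ventral cells Cdkn2a had 14 UMIs in distal luminal-like cells, 1 in basal-like cells and 0 in proximal luminal-like cells, where the count allows up to 5.78 CPM. A further 8 proximal UMIs came from 1 cell of an unnamed cluster.

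Cdkn2b, which encodes p15, was low in each class. Ventral distal luminal-like cells had 2.96 CPM (2.47 to 3.51), basal-like cells 1.36 CPM (0.0345 to 7.59, from 1 UMI) and proximal luminal-like cells 3.85 CPM (0.466 to 13.9, from 2 UMIs), and these 3 could not be put in order. Among the luminal, basal-like and fibroblast-like classes of the proximal library, distal luminal-like cells were lowest at 1.28 CPM (0.924 to 1.72). Proximal luminal-like cells at 4.86 CPM (3.95 to 5.92), fibroblast-like cells at 4.91 CPM (3.23 to 7.14) and basal-like cells at 5.16 CPM (3.98 to 6.58) overlapped, and macrophage-like cells had 20.4 CPM (11.2 to 34.2, from 14 UMIs). The basal-like to distal luminal-like ratio was 4.04 (2.71 to 6.09) in the proximal library and 0.461 (0.0116 to 2.61) in the ventral library, where a single UMI stands behind the lower side. Per cell, the proximal basal-like ratio was 1.07 and the fibroblast-like ratio 0.787, so distal luminal-like cells were not lowest per cell.

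The other INK4 genes belong to the same family and were read beside them. Cdkn2c, which encodes p18, stood at 43.6 CPM in fibroblast-like, 10.0 CPM in proximal luminal-like, 3.53 CPM in distal luminal-like and 2.30 CPM in basal-like cells of the proximal library. Cdkn2d, which encodes p19Ink4d, stood at 23.1 CPM in fibroblast-like, 10.1 CPM in basal-like, 6.06 CPM in distal luminal-like and 4.47 CPM in proximal luminal-like cells. Among these 4 classes fibroblast-like cells had the highest CPM of Cdkn2a, Cdkn2c and Cdkn2d. Counted per cell, Cdkn2d was higher in distal luminal-like than in fibroblast-like cells, at 0.312 against 0.243 UMIs.

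How many members differed by 2-fold or more was counted for each comparison and set beside the same share of all genes. A gene entered the count with at least 50 UMIs over the 2 classes compared. Cdkn2a stayed under 50 UMIs in all 11 comparisons. The median gene itself was off 1 in several comparisons, with the largest shift at 1.06 on the log2 scale for ventral proximal luminal-like over distal luminal-like cells, so the counts relative to the median gene are given as well. For basal-like over distal luminal-like cells of the proximal library, 5 of 6 members (all but Cdkn1b) were 2-fold higher and 0 lower, against 27.5% of all genes higher and 20.3% lower. The median gene was shifted by 0.15 there, and the same 5 stayed past 2-fold relative to it (24.5% of all genes). Among ventral cells 3 of 6 were higher (Trp53, Cdkn1a, Cdkn1c) and 1 lower (Cdkn2b), against 37.4% of genes higher and 14.7% lower. Relative to the median gene, shifted by 0.62, the same 3 were higher, against 19% of all genes, and Cdkn2b lower, against 23.5%. Counted per cell, 1 ventral member (Cdkn1c) was 2-fold higher, against 3.22% of genes, and 3 were lower (Rb1 at 0.183, Cdkn1b at 0.267 and Cdkn2b at 0.0878), against 75.3%. The proximal count per cell was 2 higher (Cdkn1a and Cdkn1c), against 7.02%, and 1 lower (Cdkn1b), against 71.1%. These members passed the UMI minimum partly through the class where they are high, so the counts describe and do not test.

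For proximal luminal-like over distal luminal-like cells of the proximal library, 4 of 6 members (Trp53, Cdkn1a, Cdkn1c, Cdkn2b) were 2-fold higher, against 24.6% of genes, and 0 lower, against 17.3%. Relative to the median gene 3 of 6 were higher, against 21.9%. The Cdkn1a ratio was 7.14 (6.82 to 7.46), that of Cdkn2b 3.81 (2.64 to 5.58) and that of Cdkn1c 3.40 (2.83 to 4.11). Over 16 alternative settings these ratios ran from 4.39 to 9.05, 2.34 to 5.56 and 2.09 to 5.36. The last value counts the large unnamed proximal clusters as proximal luminal-like. Trp53 at 2.15 (1.93 to 2.39) was just past the limit, while Rb1 at 1.27 (1.07 to 1.5) and Cdkn1b at 1.01 (0.879 to 1.15) were below it. The ratios of UMIs per cell were 4.39 for Cdkn1a, 2.34 for Cdkn2b, 2.09 for Cdkn1c and 1.32 for Trp53, and Rb1 and Cdkn1b turned to 0.780 and 0.619. In the ventral library 4 of 6 were higher (Rb1, Cdkn1a, Cdkn1b, Cdkn1c), against 52.3% of genes, and 0 lower, against 8.73%, so the count of higher members is close to the background. Relative to the median gene 3 of 6 were higher there, against 17.4% of genes. The ventral ratios were 5.21 (4.07 to 6.60) for Cdkn1a, 5.19 (3.17 to 8.06) for Cdkn1b, 4.71 (2.11 to 9.16) for Cdkn1c and 3.72 (1.83 to 6.77) for Rb1, and the last passed 2-fold in 6 of 15 alternative settings only. Per cell these 4 came to 2.32, 2.31, 2.10 and 1.66.

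For basal-like over proximal luminal-like cells, 2 of 6 members of the proximal library were 2-fold higher, Cdkn1c at 4.10 (3.62 to 4.65) and Rb1 at 2.88 (2.47 to 3.37), against 13.1% of genes, and the same 2 relative to the median gene, against 13.5%. Cdkn1a differed by a ratio of 1.31 (1.27 to 1.35), so as a share of RNA these classes were within 2-fold of each other in p21 transcript and past it in p57 transcript. Counted per cell the Cdkn1a ratio turned to 0.561, and among ventral cells from 1.64 (1.24 to 2.18) to 0.700. Among ventral cells 3 members could be compared and 2 were higher, Cdkn1c at 6.21 (3.11 to 14.1) and Trp53 at 4.44 (2.33 to 9.30), against 10.3% of genes. Relative to the median gene 3 of 3 were higher, against 15.2% of genes. Rb1 at 0.257 (0.0598 to 0.868) and Cdkn1b at 0.270 (0.103 to 0.634) were lower there but under the 50 UMIs, which Trp53 and Cdkn1c reached through the basal-like class, so these counts depend on the minimum. Counted per cell, the ventral ratios of Cdkn1c and Trp53 were 2.66 and 1.90 and the proximal ratios of Cdkn1c and Rb1 were 1.76 and 1.23, and the proximal Trp53 ratio of 1.74 turned to 0.744.

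For fibroblast-like over distal luminal-like cells, 6 of 6 members were 2-fold higher, against 31.6% of genes, with 16.4% of genes lower, and 6 of 6 relative to the median gene, against 25.9%. The ratios ran from 2.54 for Cdkn1b to 14.2 (11.8 to 17.0) for Cdkn1c, with Cdkn1a at 5.03 (4.74 to 5.35). Counted per cell only Cdkn1c stayed past 2-fold, at 2.90, Cdkn1a was at 1.03, and Trp53, Rb1, Cdkn1b and Cdkn2b turned to 0.557, 0.673, 0.521 and 0.787. For fibroblast-like over basal-like cells, 0 of 6 members were 2-fold different in either direction, against 34.5% of genes. Relative to the median gene 1 member, Cdkn1a, was 2-fold lower, against 14.7% of genes, with a ratio of 0.539 (0.513 to 0.566) in CPM.

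**Figure D3:**
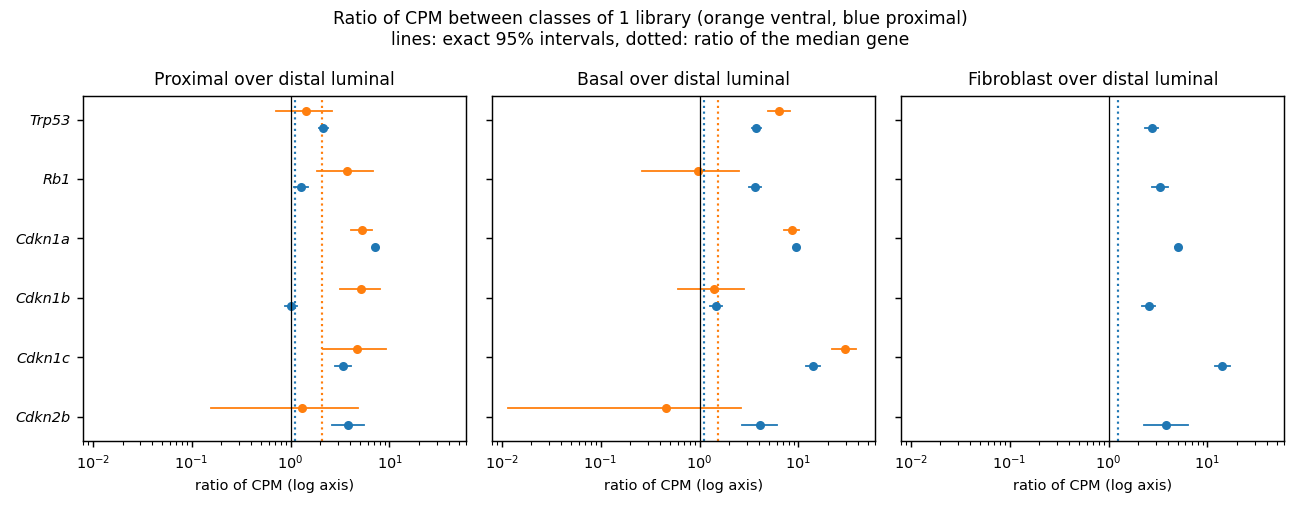
CPM ratio (x axis, log scale) of 6 members over the distal luminal-like class, for proximal luminal-like, basal-like and fibroblast-like cells (panels) in the ventral and proximal library, with exact 95% intervals for counting error and a dotted line at the median gene's ratio. Cdkn1c and Cdkn1a lie farthest to the right for basal-like cells, at 14 and 9.34 in the proximal library in CPM. Counted per cell, values below 1 are those of Trp53 and Cdkn2b (ventral) and Rb1 and Cdkn1b (proximal library) for proximal luminal-like cells, of Rb1, Cdkn1b and Cdkn2b (ventral) and Trp53, Rb1 and Cdkn1b (proximal library) for basal-like cells, and of Trp53, Rb1, Cdkn1b and Cdkn2b for fibroblast-like cells.

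Between the libraries, levels are set side by side within a class. In distal luminal-like cells 2 of 6 members were 2-fold higher in the proximal library, against 40.3% of genes, and 1 lower, against 2.14%. Cdkn1a had a ratio of 2.58 (2.41 to 2.77) and Cdkn1b of 2.21 (1.93 to 2.53), and Cdkn2b of 0.431 (0.298 to 0.613). Counted per cell, Trp53, Rb1, Cdkn1a, Cdkn1b and Cdkn1c were past 2-fold higher, at 2.36, 3.32, 4.91, 4.20 and 2.61. Cdkn2b came to 0.820 per cell and was no longer 2-fold lower. Median depth was 51896 UMIs per cell in the proximal and 27231 in the ventral class. The median gene was 1.76 times higher, and relative to it 0 members were 2-fold higher, against 15.4% of genes, and 1, Cdkn2b, was lower, against 9.49%. In proximal luminal-like cells Cdkn1a was 3.53 (2.81 to 4.50) times higher and Cdkn1b 0.429 (0.276 to 0.701), 1 of 6 in each direction, against 21.2% and 22.8% of genes. There 2 members (Trp53 and Cdkn1a) were higher relative to the median gene, against 23.4% of genes, and 1 (Cdkn1b) lower, against 19%. The Cdkn1b ratio stayed past 2-fold in 6 of 15 alternative settings and turned to 1.12 per cell. Rb1, at 0.596 in these cells, turned to 1.57 at Leiden resolution 2, where the ventral class held 104 cells. In basal-like cells 4 of 6 were higher, against 33.9% of genes: Rb1 at 6.67 (2.59 to 24.6, from 458 and 4 UMIs), Cdkn2b at 3.79 (0.656 to 152, from 65 UMIs and 1 UMI), Cdkn1a at 2.83 (2.43 to 3.31) and Cdkn1b at 2.32 (1.17 to 5.43). Relative to the median gene 3 of these 4, all but Cdkn1b, were 2-fold higher, against 28% of genes. Trp53 at 0.721 (0.564 to 0.936) and Cdkn1c at 0.654 (0.519 to 0.834) were lower without reaching 2-fold, and counted per cell they were higher in the proximal library, at 1.89 and 1.72.

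Within classes the members varied by cluster. The 3 proximal basal-like clusters ordered Cdkn1a and Cdkn1c in opposite ways as shares of RNA. The cluster led by Trp63 and Dlk2 (137 cells) had the lowest Cdkn1a, 249 CPM (222 to 279), and the highest Cdkn1c, 101 CPM (83.6 to 121). The cluster led by Krt14 and Krt17 (545 cells) was between, at 612 CPM (594 to 631) and 73.5 CPM (67.2 to 80.3). The cluster led by genes that include Grp, Ivl and Aqp3 (246 cells) had 833 CPM (806 to 859) and 58.1 CPM (51.3 to 65.5). Median depth rose in the same order, from 8664 through 11817 to 15766 UMIs per cell, and counted per cell Cdkn1c ran with Cdkn1a, at 0.869, 0.917 and 1.09 UMIs against 2.15, 7.64 and 15.6. This last cluster also held 52 of the 65 Cdkn2b UMIs of basal-like cells, a level of 11.3 CPM (8.42 to 14.8) against 1.47 CPM (0.705 to 2.70) in the Krt14 and Krt17 cluster. Trp53 varied less over the 3, from 47.5 to 73.4 CPM.

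The 3 fibroblast-like clusters differed in Cdkn1c and in the neighbours Cdkn2a and Cdkn2b. The cluster led by Inmt and Fbln1 (90 cells) had 129 CPM (106 to 156) of Cdkn1c and 0 UMIs of Cdkn2a, which allows up to 3.53 CPM. The cluster led by genes that include Cxcl14, Bgn and Wif1 (241 cells) had 78.7 CPM (67.5 to 91.1) of Cdkn1c and held 26 of the class's 31 Cdkn2a UMIs, 11.6 CPM (7.55 to 16.9). The cluster led by genes that include Cxcl12, Col3a1 and Eln (191 cells) had 44.2 CPM (36.1 to 53.4) of Cdkn1c and 5 UMIs of Cdkn2a. Cdkn2b stood at 8.89 CPM (5.43 to 13.7) in the Cxcl14 cluster, 2.5 CPM (0.917 to 5.44) in the Cxcl12 cluster and 1 UMI in the Inmt cluster. Among proximal luminal-like clusters, the smallest (46 cells) stood apart with 139 CPM (114 to 169) of Cdkn1a and 90.7 CPM (70.3 to 115) of Cdkn1c, against 525 and 14.6 CPM in the largest (510 cells). Ventral distal luminal-like clusters ran from 5.33 to 67.6 CPM (57.7 to 78.8) of Cdkn1a, the lowest in a cluster of 66 cells whose median mitochondrial share was 0.134% and the highest in a cluster led by genes that include Msmb and Pbsn. The 4 proximal distal luminal-like clusters ran from 41.8 to 88.2 CPM, below each proximal basal-like and fibroblast-like cluster as a share of RNA. Per cell they held 0.822 to 5.39 Cdkn1a UMIs, a range that takes in the 3 fibroblast-like clusters (3.24 to 4.04) and the Trp63 and Dlk2 cluster (2.15).

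**Figure D4:**
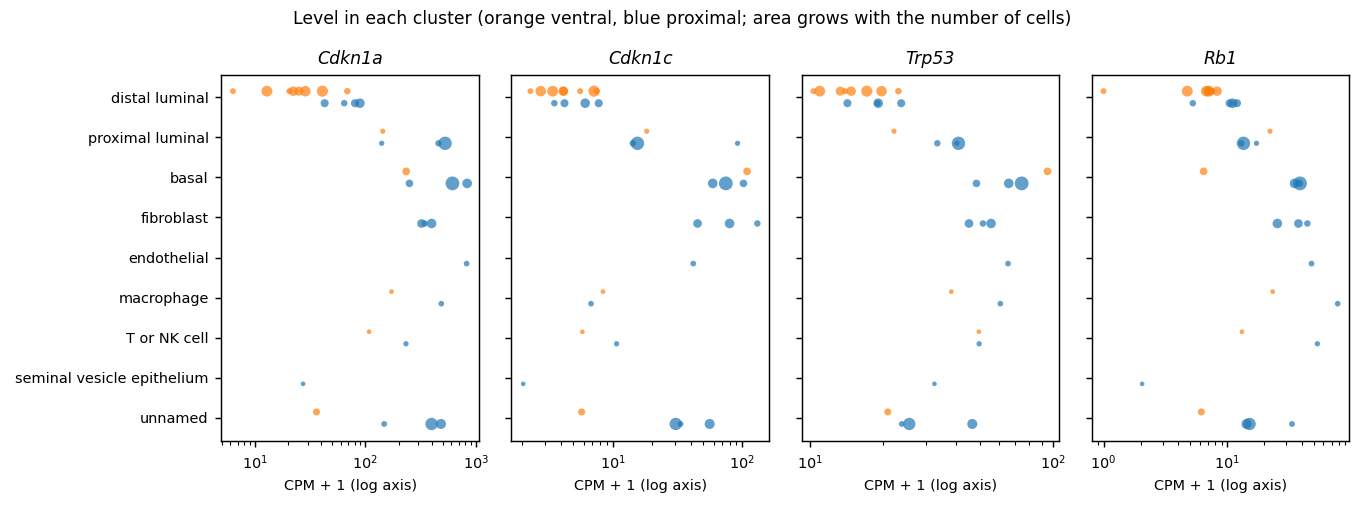
Level of Cdkn1a, Cdkn1c, Trp53 and Rb1 in each cluster (x axis, CPM plus 1, log scale) by class (y axis), with ventral clusters in orange, proximal clusters in blue and point area growing with the number of cells. The proximal distal luminal-like clusters lie between 41.8 and 88.2 CPM of Cdkn1a and the 3 proximal basal-like clusters between 249 and 833 CPM.

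Few cells met the rule for being in cycle, which was UMIs of at least 3 of 10 genes of dividing cells such as Mki67 and Top2a. Deeper cells meet it more easily. In the ventral library 14 of 1988 cells (0.704%) met it, 13 of them T or NK cell-like. Distal luminal markers summed to 370467 CPM in that class of 27 cells, beside 828 CPM of T or NK cell markers. The part of secretory cell RNA in that class was not tested. In the proximal library it was 74 of 3705 (2.0%), among them 25 of 654 distal luminal-like (3.82%), 13 of 643 proximal luminal-like (2.02%), 6 of 928 basal-like (0.647%) and 2 of 522 fibroblast-like cells (0.383%). The order of these shares was also the order of the depth of the 4 classes, and they were not thinned.

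Within proximal distal luminal-like cells, those in cycle had a higher level of several inhibitors than the rest. Cdkn1a stood at 195 CPM (174 to 218) in cycle against 64.2 CPM in the others, 3.04 (2.69 to 3.42) times as high. The same ratio came to 2.08 (1.40 to 3.0) for Rb1 and 1.68 (1.22 to 2.25) for Trp53, while Cdkn1b and Cdkn1c were at 1.19 and 1.10. The median gene differed by 0.13 on the log2 scale, and the median depth was 59096 against 50801 UMIs per cell. Cdkn2c and Cdkn2d were higher by 5.78 (3.62 to 8.96) and 4.95 (3.43 to 7.01). Their ratios in proximal luminal-like cells were smaller, at 1.88 (1.05 to 3.13) and 2.13 (0.890 to 4.39). In proximal luminal-like cells the CPM of Cdkn1a did not differ beyond counting error, at a ratio of 0.997 (0.905 to 1.10), with median depths of 72033 and 21355 UMIs per cell. Per cell, the Cdkn1a ratio was 2.19 in proximal luminal-like and 3.89 in distal luminal-like cells.

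The kinases and cyclins that the inhibitors act on were read from a list of 20 RB and G1 genes. Values here and for the p53 lists and other tumor suppressors below are shares of RNA, with none counted per cell. Per cell, 3.22% of all ventral and 7.02% of all proximal genes were 2-fold higher in basal-like over distal luminal-like cells. The shares of genes 2-fold lower were 75.3% and 71.1%. For basal-like over distal luminal-like cells of the proximal library 5 of the 19 genes tested were 2-fold higher and 1 lower, beside 27.5% and 20.3% of all genes, with a median of 0.22 on the log2 scale beside 0.15. Among ventral cells 12 of 16 were higher and 1 lower, beside 37.4% and 14.7% of all genes, with a median of 1.49 beside 0.62, and relative to the median gene 6 were higher and 3 lower, beside 19% and 23.5%. Ccnd2, a D-type cyclin, stood at 155 CPM in proximal basal-like and 167 CPM in fibroblast-like against 3.95 CPM in distal luminal-like cells, and at 395 against 7.66 CPM in the ventral basal-like and distal luminal-like cells. For proximal luminal-like over distal luminal-like cells of the proximal library 3 of 18 were higher and 3 lower, beside 24.6% and 17.3% of all genes. Cdk6, a kinase partner of D-type cyclins, had 260 CPM in proximal luminal-like against 16.7 CPM in distal luminal-like cells, and Ccnd1 138 against 27.5 CPM. The classes thus differed in which D-type cyclin led: Ccnd2 in basal-like cells, at 4.46 (4.09 to 4.87) times its proximal luminal-like level, and Ccnd1 in proximal luminal-like cells, where the basal-like ratio was 0.240 (0.216 to 0.266).

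A list of 24 p53 target genes other than Cdkn1a and Mdm2 was read beside Cdkn1a. For basal-like over distal luminal-like cells of the proximal library 10 of 24 were 2-fold higher and 2 lower, beside 27.5% and 20.3% of all genes, with a median of 0.89 beside 0.15. For proximal luminal-like cells of that library 8 of 24 were higher and 2 lower, beside 24.6% and 17.3% of genes, with a median of 0.54 beside 0.14. Fibroblast-like cells had 8 of 23 higher and 4 lower, beside 31.6% and 16.4% of genes, with a median of 0.41 beside 0.31. Among ventral cells 14 of 22 were higher and 0 lower in basal-like cells, beside 37.4% and 14.7% of genes, and relative to the median gene 9 were higher and 1 lower, beside 19% and 23.5%. In ventral proximal luminal-like cells 13 of 22 were higher, close to the 52.3% of all genes, and 0 lower, beside 8.73%, with 3 higher relative to the median gene, beside 17.4%. Perp, a desmosome gene, had 528 against 102 CPM in proximal basal-like and distal luminal-like cells. In the ventral ones it had 570 against 107 CPM, again as shares of RNA. Pmaip1, which encodes the death factor Noxa, had 174 CPM in proximal luminal-like against 5.49 CPM in distal luminal-like cells. Phlda3, an inhibitor of Akt, had 271 against 4.79 CPM in ventral basal-like and distal luminal-like cells. Going the other way, Ddit4 and Btg2 had ratios of 0.44 and 0.29 in proximal basal-like over distal luminal-like cells. Of the 10 p53 regulators, 4 were 2-fold higher and 0 lower in proximal basal-like over distal luminal-like cells, beside 27.5% and 20.3% of all genes, with a median of 0.36 beside 0.15. For ventral basal-like over distal luminal-like cells 3 of 9 were higher and 1 lower, beside 37.4% and 14.7%, and for fibroblast-like over distal luminal-like cells 1 of 10 was higher and 1 lower, beside 31.6% and 16.4%. For proximal luminal-like over distal luminal-like cells 6 of 9 were higher in the ventral library, beside 52.3%, and 2 of 9 relative to the median gene, beside 17.4%, and 3 of 10 in the proximal one, beside 24.6%.

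The tissue was dissociated with enzymes at 37°C, per the labels' protocols, and a list of 21 immediate-early and stress genes was summed to stand beside Cdkn1a. It came to 4565 CPM in ventral distal luminal-like, 16402 CPM in ventral basal-like and 21835 CPM in ventral proximal luminal-like cells, and the distal luminal-like class was lowest in CPM, as for Cdkn1a. The ventral sums per cell were 124, 84.8 and 264 UMIs, and basal-like cells were lowest, which is not the order of Cdkn1a per cell. In the proximal library the sums were 14586 CPM in distal luminal-like, 13209 CPM in proximal luminal-like, 16119 CPM in basal-like and 21466 CPM in fibroblast-like cells, which is not the order of Cdkn1a. Per cell these sums were 751, 418, 219 and 226 UMIs, highest in distal luminal-like cells. Over clusters, which share a library and its preparation, Pearson's r of Cdkn1a with this sum was 0.85 for the 13 ventral and 0.41 for the 20 proximal clusters. The same r was 0.73 and 0.64 for Cdkn1c, 0.66 and 0.13 for Rb1, 0.63 and 0.14 for Trp53, and 0.35 and 0.49 for Cdkn1b. For Cdkn2a it was 0.31 and 0.0031, and for Cdkn2b -0.064 and -0.098. Over the 10 epithelial clusters of each library, r was 0.94 and 0.41 for Cdkn1a and 0.75 and 0.45 for Cdkn1c. It was 0.74 and 0.44 for Rb1, 0.73 and 0.43 for Trp53, and 0.73 and 0.74 for Cdkn1b. Cdkn2a had 0.36 and 0.33 there, and Cdkn2b -0.14 and -0.14. The part of dissociation in the members' levels was not tested.

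A list of 21 other tumor suppressor genes of the prostate gave counts that differed by comparison. For basal-like over distal luminal-like cells of the proximal library 4 of 21 were 2-fold higher and 3 lower, beside 27.5% and 20.3% of all genes, with a median of 0.24 beside 0.15. For ventral proximal luminal-like over distal luminal-like cells 16 of 20 were higher and 1 lower, beside 52.3% and 8.73% of all genes, with a median of 1.91 beside 1.06, and 9 were higher relative to the median gene, beside 17.4%. Foxo1, a forkhead transcription factor that Akt restrains, had 123 CPM in basal-like against 22.5 CPM in distal luminal-like cells of the proximal library. Both values are shares of RNA.

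Genes whose levels ran most like those of a member were ranked by Pearson's r of log2(CPM + 10) over the clusters of a library, which share preparation and depth differences, and r is given with no test. Over the 13 ventral clusters and 7947 genes, those most like Cdkn1a were Pnp (0.98), Tiparp (0.98) and Sf3b1 (0.97). Cdkn1c ran with Anks3 (0.99) and Phlda3 (0.98), Trp53 with Taf11 (0.97), Tmed5 (0.96) and Zyx (0.96), Rb1 with Arhgef7, Tet3 and Fbxw11 (0.98 each), and Cdkn1b with D3Ertd751e (0.98), Ankzf1 (0.97) and Lsm14b (0.97). Over the 20 proximal clusters and 11749 genes, Cdkn1a ran most like Ncl (0.95), Pcna (0.94), the sliding clamp of DNA replication, and Usp25 (0.94). Pcna stood at 42.0 CPM in distal luminal-like, 143 CPM in proximal luminal-like, 175 CPM in basal-like and 134 CPM in fibroblast-like cells of that library. Cdkn1c ran most like Peg10 (0.97), an imprinted gene derived from a retrotransposon, then Bcorl1 (0.95) and Serpini1 (0.94). Trp53 ran with Hif1a (0.90) and Itgb1 (0.89), and Rb1 with Lims1 (0.91), Ncoa3 (0.91) and Ripk2 (0.90). Cdkn1b ran with Nup85 (0.90), Rora (0.89) and Xxylt1 (0.89), and for Cdkn2b the values were lower, 0.77 for Casc1 and 0.75 for Plekhm2 and Krr1. Cdkn2a in both libraries and Cdkn2b in the ventral one were under the 200 UMIs needed. No gene was among the 3 most alike of a member in both libraries.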

How the data were processed

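The authors deposited, for each gene and cell barcode, unnormalized UMI counts made with Cell Ranger 7.0.0 on mm10, per the submitters' processing notes; the gene annotation and the treatment of intron reads are not given in the sources used here. Barcodes with fewer than 500 genes or over 10% mitochondrial UMIs were dropped (226 ventral, 635 proximal). Scrublet (0.8% expected per 1000 cells) called 11 of 5704 cells, 0.193%, so it has not worked and doublets are largely still in the data.

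Work was done in Python 3.11.15 (scanpy 1.11.5, anndata 0.12.19, igraph 0.11.9, numpy 2.4.6, scipy 1.17.1, pandas 2.3.3). Cells were brought to 10000 UMIs each, put on a log scale and clustered, 1 library at a time, on 2000 variable genes that left out the members and the gene lists, with 30 components, 15 neighbours and Leiden resolution 1. A cluster was named from at least 3 markers present in 25% of its cells and stayed unnamed where another class had more markers than its own among its 10 leading genes, or where it was far shallower than its library with none of its own markers among them. Unnamed clusters held 113 ventral and 765 proximal cells. The class limits were 50 cells, with the 43 ventral proximal luminal-like cells kept as an exception.

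UMIs were summed per class and divided by the class total. Levels have exact Poisson, shares exact Clopper-Pearson and ratios exact conditional intervals at 95%; a count of 0 allows up to 3 counts. All 7 members were named. From each list up to 3 genes per direction and comparison were named by log2 ratio of CPM + 10, among genes past 2-fold with at least 50 UMIs. Members and lists were chosen with earlier results of these data known. The steps were tested on simulated data. Alternatives for the ratios (14 planned, 2 added after seeing the data) covered cell filters, doublets, clustering, naming, scaling and free RNA. Thinning was varied only for the shares of cells, and the UMI minimum only for the gene lists. Gene positions are from GENCODE on GRCm38 and promoters from RefSeq. A few genes that the naming rules pick are not reported here.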

Additional observations from a re-analysis of the deposited data

Results flagged for a closer look

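Cdkn2b, the gene of the INK4 inhibitor p15, had opposite directions in the 2 libraries for basal-like over distal luminal-like cells. The CPM ratio was 0.461 (0.0116 to 2.61) in the ventral library and 4.04 (2.71 to 6.09) in the proximal library, and the difference was not tested. The ventral ratio rests on 1 UMI in basal-like cells and 131 UMIs in distal luminal-like cells, and its interval includes 1. The proximal ratio rests on 65 and 43 UMIs, of which 52 of the 65 lay in 1 of the 3 basal-like clusters. Counted per cell, the proximal ratio was 1.07.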

How the results depend on the processing

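No paired analysis was possible because each group is 1 library and the labels give no replicate numbers, and for the same reason no library could be left out. Of 63 ratios of members, 36 were past 2-fold, and 16 of these stayed past it under all their alternatives. Of 975 alternative values of ratios, 762 stayed within the counting interval of the main ratio, 206 moved further and 7 turned the direction of a ratio past 2-fold. All 7 were under UMIs per cell instead of CPM: Trp53 and Rb1 in proximal basal-like over distal luminal-like cells (0.983 and 0.963), Trp53, Rb1, Cdkn1b and Cdkn2b in fibroblast-like over distal luminal-like cells (0.557, 0.673, 0.521 and 0.787), and Cdkn1b in proximal luminal-like cells between libraries (1.12). A further 71 values lay on the other side of 1 for ratios under 2-fold, 16 of them counted per cell and 55 under other settings, over 14 ratios.

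The number of members at least 2-fold different in either direction moved by over 1.5 times in 13 of 170 cases. Counted per cell, it was 3 in place of 5 for proximal basal-like over distal luminal-like cells, 1 in place of 2 for basal-like over proximal luminal-like cells in each library, 1 in place of 6 for fibroblast-like over distal luminal-like cells, 1 in place of 0 for fibroblast-like over basal-like cells, and between libraries 5 in place of 3 in distal luminal-like and 4 in place of 2 in proximal luminal-like cells. With median-of-ratios scaling it was 1 for fibroblast-like over basal-like cells and 1 between libraries in distal luminal-like cells, where leaving out genes over 0.5% of UMIs also gave 1. Between libraries in proximal luminal-like cells it was 4 with limits of 1000 genes and 5% mitochondrial UMIs, 1 with a mean over cells, and 1 with the large unnamed proximal clusters counted in, an alternative chosen after seeing the data. Pairs of member and class with a UMI in at least 10% of cells numbered 13 at 2000 UMIs, 6 at 1000 UMIs and 38 without thinning. Genes of the lists at least 2-fold different in ventral basal-like over proximal luminal-like cells numbered 22, with 8 at a minimum of 200 UMIs and 44 with none. The cause of these moves was not tested beyond what the settings themselves change.

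Close to the limit were Rb1 in ventral proximal luminal-like over distal luminal-like cells, past 2-fold in 6 of 15 alternatives, Cdkn1b between libraries in proximal luminal-like cells, in 6 of 15, and Trp53 in proximal luminal-like over distal luminal-like cells of the proximal library, in 7 of 16. Naming each cell by its highest marker z-score gave no value for the 6 comparisons that use ventral classes. Cdkn2a, Cdkn2b and the ventral basal-like counts of Rb1 and Cdkn1b rest on few UMIs, under 10 in several classes.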

Other observations

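Unnamed proximal clusters also held the members. A cluster of 270 cells was led by genes that include the periurethral markers Ly6d, Upk1a and Upk3a and the proximal luminal marker Krt4. Its best-scoring class was proximal luminal, with 6 markers found. It had 482 CPM of Cdkn1a, 55 CPM of Cdkn1c and 11 UMIs of Cdkn2a, of which 8 came from 1 cell. A cluster of 430 cells led by haemoglobin genes had 396 CPM of Cdkn1a and 29.7 CPM of Cdkn1c. A shallow cluster of 65 cells had 147 CPM of Cdkn1a. None of the 3 entered a comparison of the report, and the clusters of 270 and 430 cells entered only the alternative that counted them as proximal luminal-like.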
